A study of Mus musculus with 6 samples.

Results

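Rps13 and Rps18 encode proteins of the small ribosomal subunit, and the mouse genome holds intron-less copies of both that match them almost letter for letter. The 9 genes described are those 2 parents and 7 copies, found by their symbols among 55401 gene rows: Rps13 with Rps13-ps1 and Rps13-ps2, and Rps18 with Rps18-ps1, Rps18-ps3, Gm10260, Gm11361 and Gm6794. They were chosen because earlier values from these same libraries showed the parents high where copies were low, so their levels by genotype are a description and carry no test.

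The anterior cingulate cortex, a midline frontal area, was taken from adult mice with the Ythdf1 genotypes WT (wild type, 3 libraries) and KO (knockout, 3 libraries). YTHDF1 is a cytoplasmic protein that binds N6-methyladenosine in mRNA. The design asked what differs between the genotypes, and no treatment or further allele is named for either group. The sources used here name neither strain nor sex, describe no knockout allele and do not say whether each replicate was a separate mouse, so any p-value measures only the spread between these libraries, which may be technical.

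Each ribosome carries 1 molecule of each of these proteins, so cells make them in step with the other ribosomal proteins. RPS18 (uS13 in the universal naming) lies in the head of the small subunit near the transfer RNAs, and RPS13 (uS15) lies in its body and belongs to the proteins that bind ribosomal RNA early in assembly, as known from bacteria. Ribosomal protein mRNAs are short and very abundant, and they have often been copied back into the genome as processed pseudogenes, which lack introns. A short read from such an mRNA can then match the parent and a copy alike.

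Positions are in GRCm38 (GENCODE M21). Rps13 (ENSMUSG00000090862) lies on the minus strand of chromosome 7, 116331505 to 116334195, with 6 exons, and holds the small nucleolar RNA Snord14a within its bounds. Rps18 (ENSMUSG00000008668) lies on the minus strand of chromosome 17, 33951999 to 33956001, with 5 exons, and its 5′ end overlaps Vps52 on the opposite strand. All 7 copies have 1 exon. Rps13-ps2 is also on chromosome 7 (88530446 to 88530898) and Rps13-ps1 is on chromosome 8 (87047689 to 87048226). Of the Rps18 copies, Gm10260 (chromosome 13, 97760072 to 97760632) and Gm11361 (chromosome 13, 28257528 to 28258134) are annotated by GENCODE as protein-coding retrogenes, while RefSeq lists both as pseudogenes under the names Rps18-ps6 and Rps18-ps5. Rps18-ps3 (chromosome 8, 107262793 to 107263248), Rps18-ps1 (chromosome 4, 71370738 to 71371196) and Gm6794 (chromosome 6, 66711691 to 66712147) are processed pseudogenes in GENCODE and pseudogenes in RefSeq.

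The last 300 coding bases of each parent, from the GENCODE transcripts, are shown so that the few letters by which the copies differ can be seen. Capitals mark the bases at which Rps13-ps1 differs from Rps13, and those at which Gm10260, Gm11361 or Rps18-ps3 differs from Rps18 (in this stretch 2 and 7 bases).
Rps13, coding bases 157 to 456: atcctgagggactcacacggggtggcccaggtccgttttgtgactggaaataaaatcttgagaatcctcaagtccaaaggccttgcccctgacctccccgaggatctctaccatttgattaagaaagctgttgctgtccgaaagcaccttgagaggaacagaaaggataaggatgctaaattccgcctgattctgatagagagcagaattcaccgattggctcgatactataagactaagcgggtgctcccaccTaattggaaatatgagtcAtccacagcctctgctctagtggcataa
Rps18, coding bases 160 to 459: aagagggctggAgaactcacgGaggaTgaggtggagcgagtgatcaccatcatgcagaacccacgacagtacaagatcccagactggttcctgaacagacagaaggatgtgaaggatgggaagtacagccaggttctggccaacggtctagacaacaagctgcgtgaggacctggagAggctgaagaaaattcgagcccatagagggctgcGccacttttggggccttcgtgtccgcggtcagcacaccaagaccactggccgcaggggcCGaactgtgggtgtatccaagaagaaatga

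Rps13-ps2 matched Rps13 at every one of its 453 bases (100% identity), which are all but the last 3 of the 456 coding bases. Rps13-ps1 matched over 522 bases with 2 differences (99.6% identity), T411C and A429G, where the parent's base comes first and positions count from the first base of the parent's start codon. Of the 307 stretches of 150 bases, the read length given in the labels, that can be cut from the spliced Rps13 coding sequence, 304 (99.0%) occur letter for letter in Rps13-ps2 and 261 (85.0%) in Rps13-ps1. The 3 stretches not found in Rps13-ps2 reach past its annotated end, where the 2 were not compared. Within its 453 bases a read of that length holds no base that parts Rps13 from Rps13-ps2.

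The Rps18 copies differ more. Gm10260 has 4 coding differences (T186C, A337C, G371A and G431A; 99.1% identity over 545 bases), Gm11361 has 3 (T11A, A171C and A337C; 99.3% over 540) and Rps18-ps3 has 3 (G181C, A337C and C430T; 99.3% over 456). Rps18-ps1 has 8 and Gm6794 has 18. Of the 310 stretches of 150 bases in the Rps18 coding sequence, 52 (16.8%) occur exactly in a listed copy: 37 in Gm10260, 37 in Rps18-ps3, 26 in Gm11361 and 0 in Rps18-ps1 or Gm6794. With stretches of 75 bases the share was 74.0%.

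One position parts Rps18 from every listed copy. At base 337 (codon 113, position 33952267 of chromosome 17) 4 copies carry A337C and Rps18-ps1 carries A337T. The stretches from base 322 to base 352 are shown with that base in capitals.
Rps18: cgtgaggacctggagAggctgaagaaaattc
Gm10260: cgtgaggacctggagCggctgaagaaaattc
Gm11361: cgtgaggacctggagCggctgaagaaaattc
Rps18-ps3: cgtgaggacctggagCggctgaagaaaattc
Gm6794: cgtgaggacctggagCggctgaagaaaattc
Rps18-ps1: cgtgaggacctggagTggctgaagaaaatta

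In Rps13 the base that differs in most copies is 411 (codon 137, position 116332390 of chromosome 7). T411C stands in Rps13-ps1 and in 3 further copies with at least 95% identity that are not among the listed ones, Rps13-ps4, Gm15483 and Rps13-ps5, whereas Rps13-ps2 carries the parent's base. The stretches from base 396 to base 426 show it in capitals.
Rps13: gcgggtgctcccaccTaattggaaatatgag
Rps13-ps2: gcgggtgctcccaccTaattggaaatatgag
Rps13-ps1: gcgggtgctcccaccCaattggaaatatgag

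**Figure D1:**
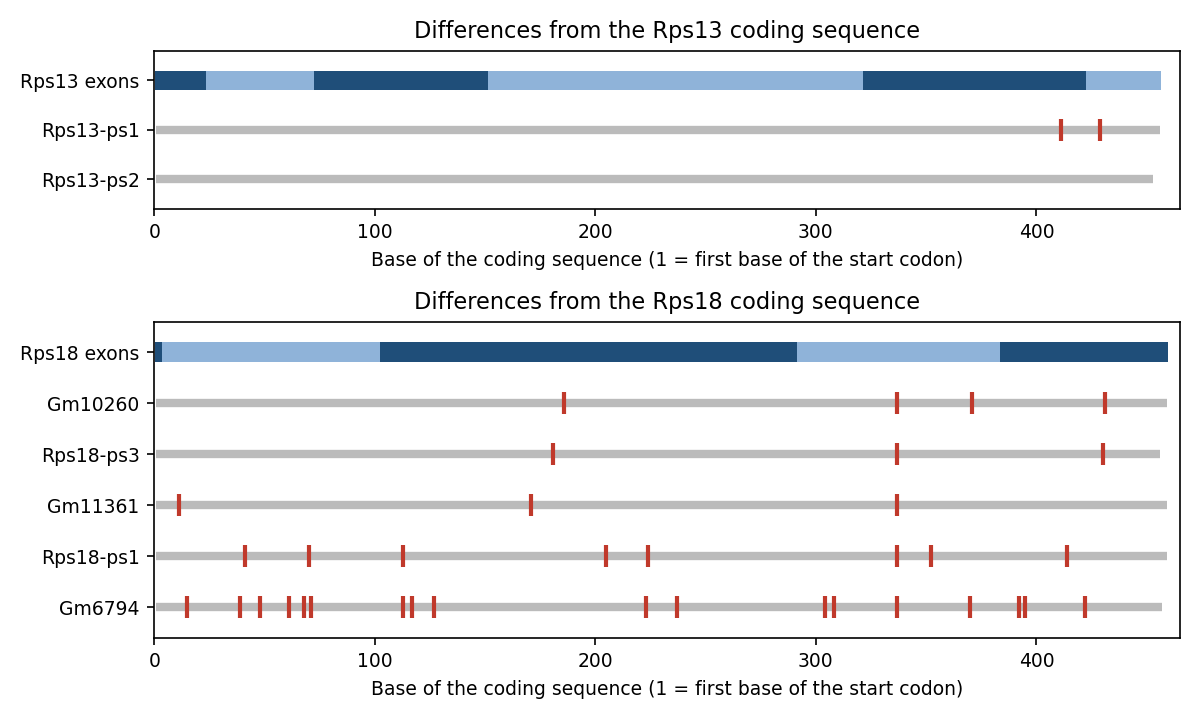
Each row is a copy drawn along the coding sequence of its parent (x axis, base number from the start codon), and each red tick is a base that differs. Blue blocks are the parent's coding exons in alternating shades. Rps13-ps2 has no tick, and all 5 Rps18 copies share the tick at base 337.

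The parent's reading frame is open in 5 of the 7 copies over the bases they hold: Rps13-ps1, Rps13-ps2, Gm10260, Gm11361 and Rps18-ps1. In Rps18-ps3 the difference C430T makes a stop at codon 144 of 153, and in Gm6794 C223T makes one at codon 75.

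Library facts bear on all values that follow. Counts summed to 61792250 to 69848835 per library. Between libraries the chi-square statistic was 14.6 to 32.5 times its degrees of freedom (15.2 to 24.7 within groups), so none was a copy of another. The most alike pair, WT replicate 2 and KO replicate 3, crossed the groups. Ythdf1 itself stood at 52.7 ± 3.43 CPM (counts scaled to an equal library size with TMM factors) with the WT label and 59.2 ± 2.59 with the KO label (SD, n = 3 each), a log2 fold change of 0.17 (SE 0.066; edgeR adjusted p = 0.93). The gene total thus does not show the loss that the label names, and "KO" below means the library so labelled. Neuronal markers were high in every library (Snap25 at 2896 to 3071 CPM, Slc17a7 at 859.7 to 1060 CPM). Of 16 markers of 8 cell types or tissues, 14 overlapped between the groups and 2 were lower in every KO library. These were Col1a2, a collagen gene of the meninges (13.4 to 26.3 CPM in WT, 10.2 to 12.9 in KO), and Aqp4, the astrocyte water channel (115.0 to 123 CPM in WT, 92.9 to 113.0 in KO). Over all genes tested, 5.16% were lower in KO without overlap. The other marker of each list overlapped: Dcn of the meninges (12.0 to 24.4 CPM in WT, 10.3 to 15.5 in KO) and Aldoc of astrocytes (585 to 701 CPM in WT, 683 to 814 in KO). Summed by list, meningeal markers were at 25.4 to 50.7 CPM in WT and 21.5 to 28.4 in KO libraries, astrocyte markers at 708 to 822 and 787 to 927, and oligodendrocyte markers at 2715 to 3277 and 3028 to 4531. The choroid plexus marker Ttr ran from 0.68 to 42.0 CPM over the 6 libraries, the extremes being KO replicate 3 and WT replicate 3. The summed level of every list overlapped. The part of such cell mixtures in the values below was not tested, and in bulk tissue fewer cells of a type and less RNA per cell cannot be told apart.

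Rps18 was counted 955, 1522 and 1110 times in WT replicates 1, 2 and 3 and 3440, 2974 and 2186 times in KO replicates 1, 2 and 3. Every KO library stood above every WT library. Scaled for depth, Rps18 averaged 18.1 ± 4.65 CPM across WT and 44.0 ± 8.06 CPM across KO libraries (SD, n = 3 each), a 2.43-fold ratio (log2 1.28, SE 0.26). KO replicate 3, at 34.7 CPM, lay lowest in its group, and WT replicate 2, at 23.3 CPM, highest in its own.

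Gm10260, the retrogene copy on chromosome 13, ran the other way, with 1057, 743 and 1210 counts in WT replicates 1, 2 and 3 and 83, 0 and 0 in KO replicates 1, 2 and 3. Its mean was 15.1 ± 3.46 CPM in WT and 0.39 ± 0.68 CPM in KO libraries. A count of 0 allows up to 3 counts, or 0.049 CPM at the depth of KO replicate 2. By depth alone, the WT mean was thus at least 309.7-fold above the 2 KO libraries at 0. That bound holds for counts assigned to Gm10260 and leaves out how reads were assigned at its locus, described next. In KO replicate 1 the gene was present at 1.18 CPM.

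A gene that overlaps Gm10260 had counts in the 2 KO libraries where Gm10260 had 0. Gm26619 is a long noncoding RNA gene on the opposite strand at the Gm10260 locus, and it holds the reverse complement of the Rps18-like sequence (99.1% identity over 542 bases). It had 0 counts in all WT libraries and in KO replicate 1, 27 in KO replicate 2 and 570 in KO replicate 3. Gm10260 and Gm26619 together had 1057, 743 and 1210 counts in WT and 83, 27 and 570 in KO replicates 1, 2 and 3. The groups remained apart, but KO replicate 3, at 9.05 CPM, came near the lowest WT library at 11.4 CPM. The means of this sum were 15.1 ± 3.46 CPM in WT and 3.56 ± 4.77 CPM in KO libraries, 4.26-fold apart. The libraries mark strand, per the labels' protocols, but the strand setting of the counting is not given in the sources used here.

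Rps18-ps3 had 657, 686 and 844 counts in WT replicates 1, 2 and 3 and 95, 22 and 475 in KO replicates 1, 2 and 3. The groups did not overlap, but KO replicate 3 lay far above the other two KO libraries. The means were 11.0 ± 1.48 and 3.08 ± 3.89 CPM, a log2 ratio of -1.84 that was -3.69 without KO replicate 3.

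Gm11361 showed the same outline at a lower level, with 321, 344 and 366 counts in WT replicates 1, 2 and 3 and 28, 66 and 269 in KO replicates 1, 2 and 3. The WT libraries lay close together (5.20 ± 0.34 CPM) and the KO libraries far apart (1.91 ± 2.07 CPM). The log2 ratio was -1.44, and -2.82 without KO replicate 3. Rps18-ps1 (6 counts in KO replicate 2 and 0 elsewhere) and Gm6794 (3 counts each in KO replicates 1 and 3 and 0 elsewhere) were close to undetected, and no ratio is given for them.

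Rps13 had 551, 682 and 1544 counts in WT replicates 1, 2 and 3 and 2244, 1712 and 1725 in KO replicates 1, 2 and 3. WT replicate 3 stood much nearer to the KO libraries than to the other WT libraries, though the groups still did not overlap. The means were 13.97 ± 8.07 and 29.1 ± 2.45 CPM, 2.08-fold apart (log2 1.06, SE 0.46), and the log2 ratio was 1.63 without WT replicate 3.

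Rps13-ps2, the copy with no differing base, had 817, 838 and 343 counts in WT replicates 1, 2 and 3 and 189, 261 and 198 in KO replicates 1, 2 and 3. Rps13-ps1 had 523, 551 and 219 counts in WT and 151, 163 and 123 in KO replicates 1, 2 and 3. Both copies were lowest, among WT libraries, in replicate 3, where Rps13 was highest, and in both the groups stayed apart. The mean of Rps13-ps2 was 10.1 ± 4.28 CPM in WT and 3.36 ± 0.81 in KO libraries (log2 ratio -1.59), and that of Rps13-ps1 was 6.53 ± 2.82 and 2.25 ± 0.36 (log2 ratio -1.54).

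These values put 2 members higher and 5 lower in KO with no overlap between the groups. Over all 20587 genes tested, 5.84% were higher and 5.16% lower in KO without overlap. As the members were picked for this pattern, nothing is read from the difference. Of the 9 members 7 passed the filter on low counts, and Gm10260 passed through its WT libraries alone.

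**Figure D2:**
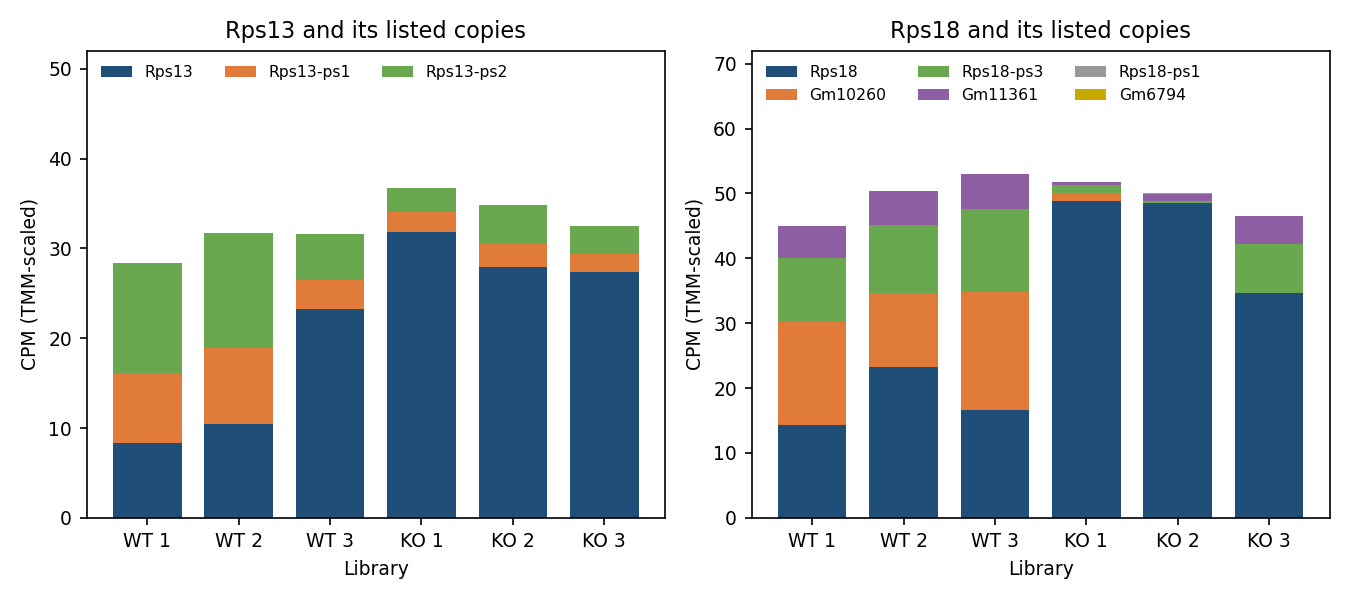
Stacked bars give the CPM (y axis, TMM-scaled) of each parent and its listed copies in the 6 libraries (x axis), with Rps13 on the left and Rps18 on the right. The blue parent segment is taller in every KO bar, while the full height of the Rps18 bars stays between 44.9 and 53.0 CPM.

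Per kilobase of transcript the WT means of Rps18, Gm10260 and Rps18-ps3 lay near one another, and so did those of Rps13 and Rps13-ps2. Rps18 averaged 32.3 CPM per kilobase, Gm10260 27.0, Rps18-ps3 24.2 and Gm11361 8.56, and of these neighbours only Gm11361 lay below the range of the next. In KO libraries Rps18 averaged 78.6 CPM per kilobase, Rps18-ps3 6.76, Gm11361 3.15 and Gm10260 0.70. Rps13 averaged 23.7, Rps13-ps2 22.3 and Rps13-ps1 12.1 CPM per kilobase in WT libraries, with overlapping ranges, against 49.3, 7.42 and 4.18 in KO libraries. The near WT means of Rps13 and Rps13-ps2 hid opposite orders. Rps13 had fewer counts than Rps13-ps2 in WT replicates 1 and 2 (551 and 682 against 817 and 838). It had more in WT replicate 3 (1544 against 343).

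Summed over parent and copies the picture changed. Rps18 with its listed copies had 2990, 3295 and 3530 counts in WT replicates 1, 2 and 3 and 3649, 3068 and 2933 in KO replicates 1, 2 and 3. The libraries of the groups interleaved. The sums averaged 49.5 ± 4.15 CPM in WT and 49.5 ± 2.67 CPM in KO libraries (SD, n = 3 each), a log2 ratio of -0.00025 with an SE of 0.084. With the counts of Gm26619 added the KO mean was 52.6 ± 2.67 CPM and the log2 ratio 0.09 (SE 0.083), still with overlap.

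Rps13 with its listed copies had 1891, 2071 and 2106 counts in WT and 2584, 2136 and 2046 in KO replicates 1, 2 and 3. The raw sums overlapped, and after scaling for depth the KO libraries (32.5 to 36.7 CPM) lay just above the WT libraries (28.4 to 31.7 CPM). The means were 30.6 ± 1.89 and 34.7 ± 2.11 CPM, 1.13-fold apart (log2 0.18, SE 0.073), against the 2.08-fold ratio of Rps13 alone.

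The share of a family's counts that was assigned to the parent did not overlap between the groups in either family, which is the pattern they were picked for. For Rps18 it was 31.9%, 46.2% and 31.4% in WT replicates 1, 2 and 3 and 94.3%, 96.9% and 74.5% in KO replicates 1, 2 and 3. For Rps13 it was 29.1%, 32.9% and 73.3% in WT and 86.8%, 80.1% and 84.3% in KO replicates 1, 2 and 3. The 95% Wilson intervals of these shares, which cover counting error only, reached at most 2.05 percentage points to either side. The library between the groups was thus WT replicate 3 for Rps13 and KO replicate 3 for Rps18.

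The counts of the copies among themselves behaved differently in the 2 families. The ratio of Rps13-ps1 to Rps13-ps2 was 0.640, 0.658 and 0.638 in WT and 0.799, 0.625 and 0.621 in KO replicates 1, 2 and 3, and it varied far less than the counts of either copy. The ratio of Gm11361 to Rps18-ps3 was 0.489, 0.501 and 0.434 in WT but 0.295, 3.0 and 0.566 in KO replicates 1, 2 and 3. In WT libraries Gm10260 had 1.61, 1.08 and 1.43 times the counts of Rps18-ps3.

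**Figure D3:**
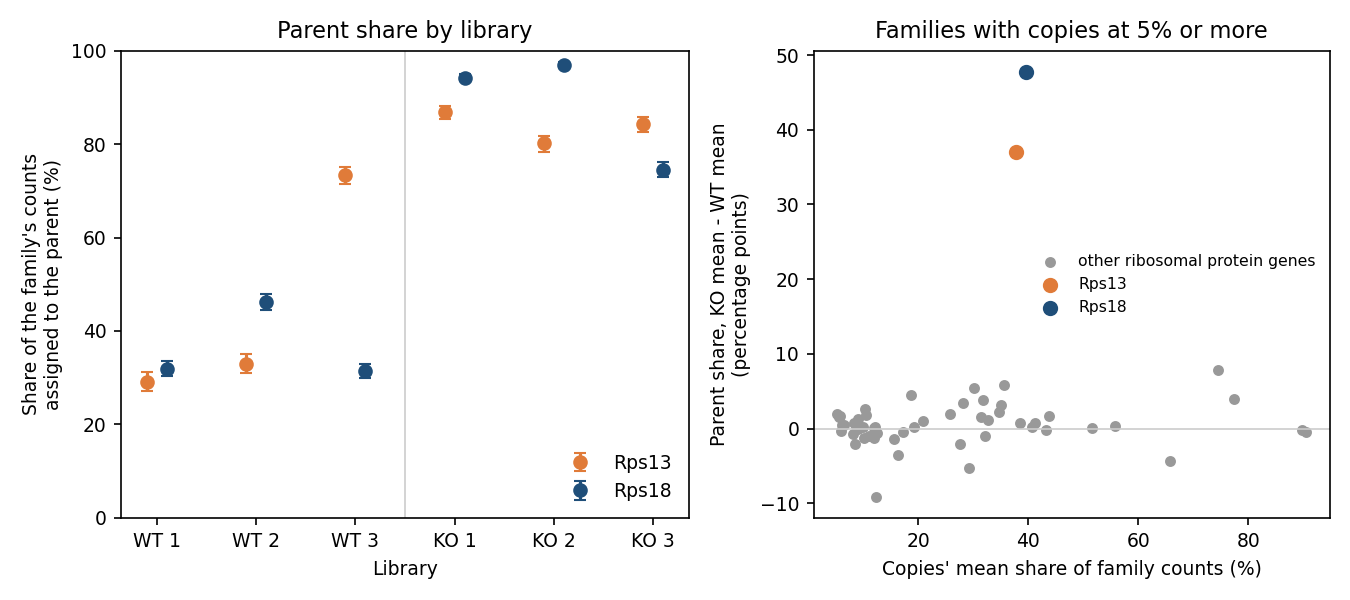
Left, the share of family counts (y axis, %) assigned to Rps13 (orange) and Rps18 (blue) in each library (x axis), with 95% Wilson intervals; the KO libraries lie between 74.5% and 96.9%. Right, the KO mean minus the WT mean of that share (y axis, percentage points) against the copies' mean share of the counts (x axis, %), with 52 other ribosomal protein genes in grey, where a family is the gene plus all genes matching at 95% identity or more.

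The other ribosomal protein genes show what was usual for such families in these libraries. A family was here the gene plus every annotated gene with at least 95% identity over at least 150 bases, which adds Gm26619 and Gm48116 to the Rps18 family and 3 pseudogenes to the Rps13 family. Of 81 other ribosomal protein genes 77 had at least 1 such match. In 52 the matching genes, called copies here, held 5% or more of the family's counts. Not every match is a copy: the Rpl18 sum takes in the protein-coding gene Sphk2, which matches 302 bases of Rpl18 on the opposite strand. In those 52 the parent's share changed between the genotype means by -9.11 (Rps19) to 7.85 (Rps27) percentage points, with a median of 0.30. For Rps18 the change by the same definition was 47.7 points and for Rps13 37.1 points. In 1 of the 52 the shares of the groups did not overlap, Rpl9, at 61.5% in WT and 67.3% in KO libraries.

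The genes of the small subunit other than the members were slightly higher in KO libraries: 29 of 32 had a log2 fold change above 0, with a median of 0.18 against -0.00062 over all genes tested. edgeR's quasi-likelihood test called 0 of them at an adjusted p under 0.05, as it called 0% of the 20587 genes tested. At an unadjusted p under 0.05 it called 17 of the 32, all higher (9 without WT replicate 1), against 5.26% of all tested genes, 2.62% higher and 2.64% lower. Of the 49 genes of the large subunit 49 lay above 0, with a median of 0.19 and 23 at an unadjusted p under 0.05, all higher. The 0.18 of the summed Rps13 family stood at the same level as these medians, which are of genes taken alone. The summed Rps18 family, at -0.00025 without Gm26619, lay below them. By the family definition used for the other ribosomal protein genes, Rps13 was at 0.18 and Rps18 at 0.089. The 81 other genes, summed in that way, had a median of 0.169 and ran from -0.019 (Rpl18, with Sphk2 in its sum) to 0.439. Both families lay within that range, Rps18 below the median and Rps13 just above it. That placement was not tested, nor was the part of Col1a2, Aqp4 and the other markers above in the shift of the ribosomal protein genes.

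Among those other genes the highest log2 ratios of a gene alone were those of Rps27, a zinc-binding protein of the small subunit (0.81), and Rps29 (0.46). With copies included the highest were Rps29 (0.44) and Rpl36 (0.43). The lowest alone were Rps12 (-0.04) and Rps19 (-0.02), which became 0.16 and 0.13 with their copies. Among the family sums the lowest were Rpl18 (-0.02, with Sphk2 included) and Rps27l (-0.0086), a paralog of Rps27. Rps27l had 0 matching genes, so its value is that of the gene alone. Rps27 was at 3.57 ± 0.67 CPM in WT and 6.27 ± 4.20 CPM in KO libraries, which overlapped, and with its copies its log2 ratio was 0.36.

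**Figure D4:**
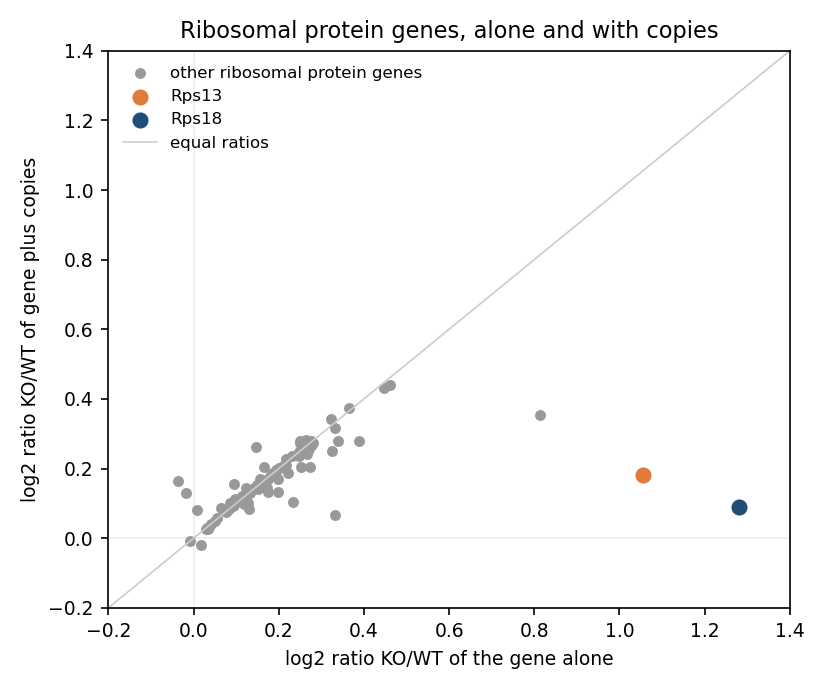
Each point is a ribosomal protein gene, placed by its log2 ratio of KO to WT mean CPM alone (x axis) and summed with all genes matching at 95% identity or more (y axis); the line marks equal ratios. Rps13 and Rps18 lie at 1.06 and 1.28 on the x axis but at 0.18 and 0.09 on the y axis, the latter with Gm26619 in the sum.

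The authors' deposited table of 537 transcripts listed as differing holds 3 of the members. In the authors' deposited table the spliced Rps18 transcript ENSMUST00000008812 (5 exons, 560 bases) had 5.80, 16.2 and 8.40 FPKM in WT and 50.5, 31.2 and 24.0 FPKM in KO replicates 1, 2 and 3, with the authors' log2 ratio at 1.80. The same authors' deposited table gave Rps13-ps2 25.3, 26.6 and 10.6 FPKM in WT and 5.60, 8.67 and 6.38 FPKM in KO replicates 1, 2 and 3 (log2 ratio -1.60). For Rps13-ps1 the authors' deposited table gave 13.6, 14.7 and 5.72 FPKM in WT and 3.77, 4.55 and 3.35 FPKM in KO replicates 1, 2 and 3 (log2 ratio -1.54). The low WT value of both pseudogenes was again that of replicate 3. No transcript of Rps13, Gm10260, Gm11361 or the remaining Rps18 copies was listed there.

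Genes whose ups and downs over the 6 libraries were most like those of a member were sought among 15589 tested genes of at least 1 CPM, by the root-mean-square difference of standardized log2 profiles. The nearest to Rps18 were Snx14 (0.071), Tpgs1 (0.14) and Borcs6 (0.16), and the nearest to Rps13 were Gm3294 (0.14), Terf1 (0.16) and Fyb (0.16). The nearest to Gm10260 were Arntl (0.15), Usp49 (0.16) and Faap24 (0.21). Standardizing removes the size of the change: Snx14, a sorting nexin, was at 55.1 to 56.5 CPM in WT and 57.5 to 58.7 CPM in KO libraries. Likeness of profile over 6 libraries says nothing of shared control.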

How the data were processed

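Polyadenylated RNA was sequenced in pairs of 150-base reads from strand-marking dUTP libraries, per the labels' protocols. The submitters' processing notes list HISAT2 2.2.1, StringTie 2.1.6 and cutadapt 1.9, and they name edgeR and DESeq2 with no version. How reads were counted, on which genome build and strand, and how reads matching several places were treated is not given in the sources used here. Its part in the parent and copy counts was not tested. The authors deposited unnormalized whole-number counts per gene, used as deposited. The authors also deposited, for listed transcripts, FPKM values (scaled by length and library size), a linear fold ratio, its log2, and p-values and q-values, of which FPKM and log2 ratios are quoted.

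After filterByExpr and TMM scaling, genes were compared with edgeR 4.0.16's quasi-likelihood F-test in R 4.3.3 on all 6 libraries with no covariate, adjusted by Benjamini-Hochberg over all 20587 tested genes. The pipeline was tested on simulated data. Alternatives used DESeq2 1.42.0 and limma 3.58.1. Members are described by counts, CPM and the log2 ratio of mean CPM; the SE of that ratio comes from the SDs of log2 CPM. Copies were found with blastn 2.17.0 in GENCODE M21 transcripts, matched to the gene identifiers of the table, of which 55141 had a symbol.

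The members, lists, tests and alternatives were chosen with earlier results of these data known. All members are named; among other ribosomal protein genes those with the 2 highest and 2 lowest log2 ratios are, and for profiles the 3 nearest genes. Gm26619, Rpl9 and the further Rps13 copies were named after their values were seen.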

Additional observations from a re-analysis of the deposited data

How the results depend on the processing

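The summed families moved by less than 1 SD (the pooled SD of log2 CPM within groups) under every alternative run. For sums of such small spread, leaving out 1 of 3 libraries of a group could not have moved the ratio that far. Nothing is read from that outcome for the runs with 1 library left out. The log2 ratio of summed Rps13 lay between 0.13 and 0.23 over 13 alternatives (0.13 to 0.23 with 1 library left out), and that of summed Rps18 between -0.065 and 0.089 (-0.065 to 0.053 with 1 library left out), changing sign among them. Of the single members, 3 moved by more than 1 SD, each with 1 library left out: Rps13 (1.63 without WT replicate 3), Rps18-ps3 (-3.69) and Gm11361 (-2.82), both without KO replicate 3. All 7 members with a ratio kept its sign under the 8 to 10 alternatives run. As the groups of these members did not overlap, leaving out 1 library or pairing libraries could not have changed a sign. Nothing is read from the kept signs. For Gm10260 no ratio was formed with the replicate block or, as both remaining KO libraries are at 0, without KO replicate 1.

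Over all genes edgeR called 0 (1083 at an unadjusted p under 0.05), limma voom 0 and DESeq2 34 (11 higher, 23 lower), and edgeR called 0 to 2 with 1 library left out. Small-subunit genes at an unadjusted p under 0.05 numbered 9 to 17 with 1 library left out. The share of Rps18 stretches found in a copy was 16.8% at 150 bases, 48.6% at 100 and 74.0% at 75, by construction of shorter stretches. Same-numbered libraries did not deviate together (r = -0.098, 0.046 and 0.064 for numbers 1, 2 and 3). Differently numbered libraries spanned a similar range (r = -0.12 to 0.068). This check showed no pairing by number but cannot exclude one. With the replicate block the ratios were 0.18 for summed Rps13 and 0.0018 for summed Rps18. That block gave 0 genes called and 13 small-subunit genes at an unadjusted p under 0.05. The depth limits Rps18-ps1 and Gm6794, at 0 to 6 counts.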
